A study of Mus musculus with 4 samples.

Results

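Mitosis and spindle genes encode the machinery that moves a cell from late interphase through chromosome segregation to the cut between daughter cells. The group followed here was drawn up by gene name: 40 symbols were matched to Ensembl identifiers, and all 40 were found among the 20089 genes of the deposited tables. They were measured by RNA sequencing in HT22, an immortalised line of mouse hippocampal neurons labelled as of C57BL/6 origin. Cells carried either a lentivirus directed against Neat1, a long noncoding RNA of nuclear paraspeckles, or a control negative lentivirus, and both kinds of cell were kept without oxygen and glucose (OGD) or in DMEM/F12 with serum (normal culture). This gave knockdown cells under OGD, control cells under OGD, knockdown cells in normal culture and control cells in normal culture, with 1 library each. Every group, controls included, thus carries a lentivirus, and the sources used here give neither the length of OGD nor the number of infected clones. With 1 library per group no single comparison of groups has an error between cultures, and the ratios describe these libraries.

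Entry into mitosis is driven by the kinase Cdk1 with its cyclins, and polo-like and Aurora kinases then build the spindle. Kinetochores attach each chromosome to spindle microtubules while the checkpoint holds back the anaphase promoting complex, whose activation releases separase and starts chromosome separation. Most of these genes are transcribed together late in the cell cycle, so their RNA is commonly read as a sign of dividing cells; in RNA from whole cultures, fewer dividing cells and less RNA per dividing cell cannot be told apart.

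The libraries held between 17232866 and 20764430 reads assigned to genes. Levels are given as CPM, which are reads scaled to library size and to a TMM factor for each library. TMM factors adjust for a few genes taking many reads. Under OGD Neat1 stood at 42.1 CPM in knockdown cells and 74.4 CPM in control cells. In normal culture it stood at 121 CPM in knockdown cells and 193 CPM in control cells. The control library in normal culture stood apart. Its 15 mature neuron markers summed to 2078 CPM, against sums between 34.3 and 230 CPM in the other libraries, and Rbfox3, which encodes the neuronal nuclear protein NeuN, had 4 reads in knockdown cells against 1238 in control cells in normal culture, and under OGD 89 in knockdown cells against 10 in control cells. A list of 14 glial, vascular and blood markers summed to 262 CPM in that library, with all 14 above 0 reads. In knockdown cells under OGD it summed to 80.4 CPM with 1 marker at 0 reads, in control cells under OGD to 9.62 CPM with 5 at 0, and in knockdown cells in normal culture to 5.82 CPM with 3 at 0. Each comparison with control cells in normal culture rests on that 1 library and cannot be given without it. The marker levels of knockdown cells under OGD were also above those of both libraries they are compared with: the neuron sum was 230.0 CPM, against 85.5 CPM in control cells under OGD and 34.3 CPM in knockdown cells in normal culture. Of the 15 neuron markers, 14 were at least 2-fold higher in that library in either comparison, and so were all 7 glial, vascular and blood markers past the floor of 20 reads. The part of these markers in the results was not tested.

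The 40 genes together took 0.34% of reads in knockdown cells and 0.35% in control cells under OGD, against 0.402% in knockdown cells and 0.412% in control cells in normal culture. Exact binomial intervals under OGD were 0.337 to 0.342% in knockdown cells and 0.348 to 0.353% in control cells; in normal culture they were 0.4 to 0.405% in knockdown cells and 0.409 to 0.415% in control cells. They cover counting error only. On the CPM scale, which includes the TMM factors, the 40 genes summed to 3306 CPM in knockdown cells and 3924 CPM in control cells under OGD. In normal culture the sum was 3888 CPM in knockdown cells and 3904 CPM in control cells. On that scale the knockdown library under OGD was the lowest and the other libraries lay close together; it is also the library with the second highest marker sums. Between genes, FPKM values, which are scaled to gene length and library size, allow levels to be ranked. By the median FPKM of the 4 libraries the highest members were Cdk1 (361 FPKM, range 278 to 405), Ube2c, the ubiquitin carrier of the anaphase promoting complex (313 FPKM, 263 to 324), and Cenpa, the histone variant that marks the centromere (299.9 FPKM, 226 to 383). At the low end were Ttk, the checkpoint kinase also called Mps1 (9.08 FPKM, 5.91 to 14.4), the kinetochore protein Cenpf (4.06 FPKM, 1.57 to 12.0), and Kif20b, a kinesin of late cell division (2.99 FPKM, 1.37 to 5.16). Every member had at least 140 reads in each library, so none was lost to the floor of 20 reads used for ratios.

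Because many late cell cycle genes carry a cell cycle genes homology region (CHR) and CCAAT boxes near their starts, the promoters of the members were searched. CHR elements are bound by the MuvB complexes and CCAAT boxes by the factor NF-Y. RefSeq windows on GRCm38.p6, running from 250 bases before to 50 bases after the annotated start, were found for 34 of the 40 members. The CHR form TTTGAA was present on either strand in 25 of the 34 windows (73.5%), against 18.1% of 27025 windows of all genes. The form TTCGAA was present in 4 windows (11.8%, against 1.57%), and CCAAT in 25 (73.5%, against 37.9%). A CHR form together with CCAAT was found in 23 member windows (67.6%), against 7.7% of all windows. Matches that overlapped were each counted, and a match is a description of letters, not a bound site. The windows printed here, 5′ to 3′ on the gene's strand with matches on either strand in capitals, are those of the 4 members with the largest median difference between OGD and normal culture. They are Kif20b (chr19:34922108-34922407, plus strand), Mki67 (chr7:135716330-135716629, minus strand), Cenpe (chr3:135212313-135212612, plus strand) and Nuf2 (chr1:169531415-169531714, minus strand). Birc5 (chr11:117848987-117849286, plus strand), the member that differed most with knockdown, and Prc1 (chr7:80294201-80294500, plus strand), the only member at least 1.5-fold higher in both OGD comparisons, were added after their values were seen.
Kif20b: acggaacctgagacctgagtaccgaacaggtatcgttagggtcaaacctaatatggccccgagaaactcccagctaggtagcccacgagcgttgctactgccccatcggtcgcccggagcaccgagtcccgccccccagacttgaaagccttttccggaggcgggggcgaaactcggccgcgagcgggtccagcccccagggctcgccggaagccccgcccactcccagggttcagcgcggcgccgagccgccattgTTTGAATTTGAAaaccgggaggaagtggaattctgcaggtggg
Mki67: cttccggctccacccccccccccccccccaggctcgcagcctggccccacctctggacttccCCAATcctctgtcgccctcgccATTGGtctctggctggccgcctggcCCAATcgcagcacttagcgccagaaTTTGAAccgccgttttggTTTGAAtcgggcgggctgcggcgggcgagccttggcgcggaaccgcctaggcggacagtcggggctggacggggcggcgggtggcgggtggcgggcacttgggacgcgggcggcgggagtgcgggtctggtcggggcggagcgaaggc
Cenpe: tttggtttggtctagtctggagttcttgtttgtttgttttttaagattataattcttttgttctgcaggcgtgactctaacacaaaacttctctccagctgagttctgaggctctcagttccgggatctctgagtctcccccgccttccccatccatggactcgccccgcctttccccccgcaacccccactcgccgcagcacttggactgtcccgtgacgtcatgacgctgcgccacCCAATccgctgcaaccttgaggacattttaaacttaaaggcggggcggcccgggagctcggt
Nuf2: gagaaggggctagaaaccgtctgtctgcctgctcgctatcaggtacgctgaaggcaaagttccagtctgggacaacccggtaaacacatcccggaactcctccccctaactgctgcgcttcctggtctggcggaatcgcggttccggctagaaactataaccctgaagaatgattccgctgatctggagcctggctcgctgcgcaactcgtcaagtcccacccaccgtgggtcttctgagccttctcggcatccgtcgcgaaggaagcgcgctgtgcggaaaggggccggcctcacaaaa
Birc5: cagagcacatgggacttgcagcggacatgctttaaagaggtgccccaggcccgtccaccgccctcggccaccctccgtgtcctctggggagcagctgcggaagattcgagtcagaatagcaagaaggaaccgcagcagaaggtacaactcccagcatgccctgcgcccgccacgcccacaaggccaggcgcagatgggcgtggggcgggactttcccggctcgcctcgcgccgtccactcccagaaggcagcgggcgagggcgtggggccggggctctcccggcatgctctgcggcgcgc
Prc1: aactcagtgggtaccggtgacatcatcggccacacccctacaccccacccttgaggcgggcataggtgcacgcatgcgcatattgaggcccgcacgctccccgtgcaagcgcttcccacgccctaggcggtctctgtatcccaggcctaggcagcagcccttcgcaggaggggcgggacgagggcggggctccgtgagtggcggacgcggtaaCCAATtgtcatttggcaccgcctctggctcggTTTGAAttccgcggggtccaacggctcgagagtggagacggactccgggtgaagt
The Kif20b window held 2 adjoining TTTGAA matches just after the start, the Mki67 window 2 TTTGAA and 3 CCAAT matches, and the Prc1 window 1 of each. The Cenpe window held 1 CCAAT match, and none of the letters searched occurred in the Nuf2 and Birc5 windows. Members at least 1.5-fold lower in both OGD comparisons thus included windows with 5 matches, with 2, with 1 and with 0.

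**Figure D1:**
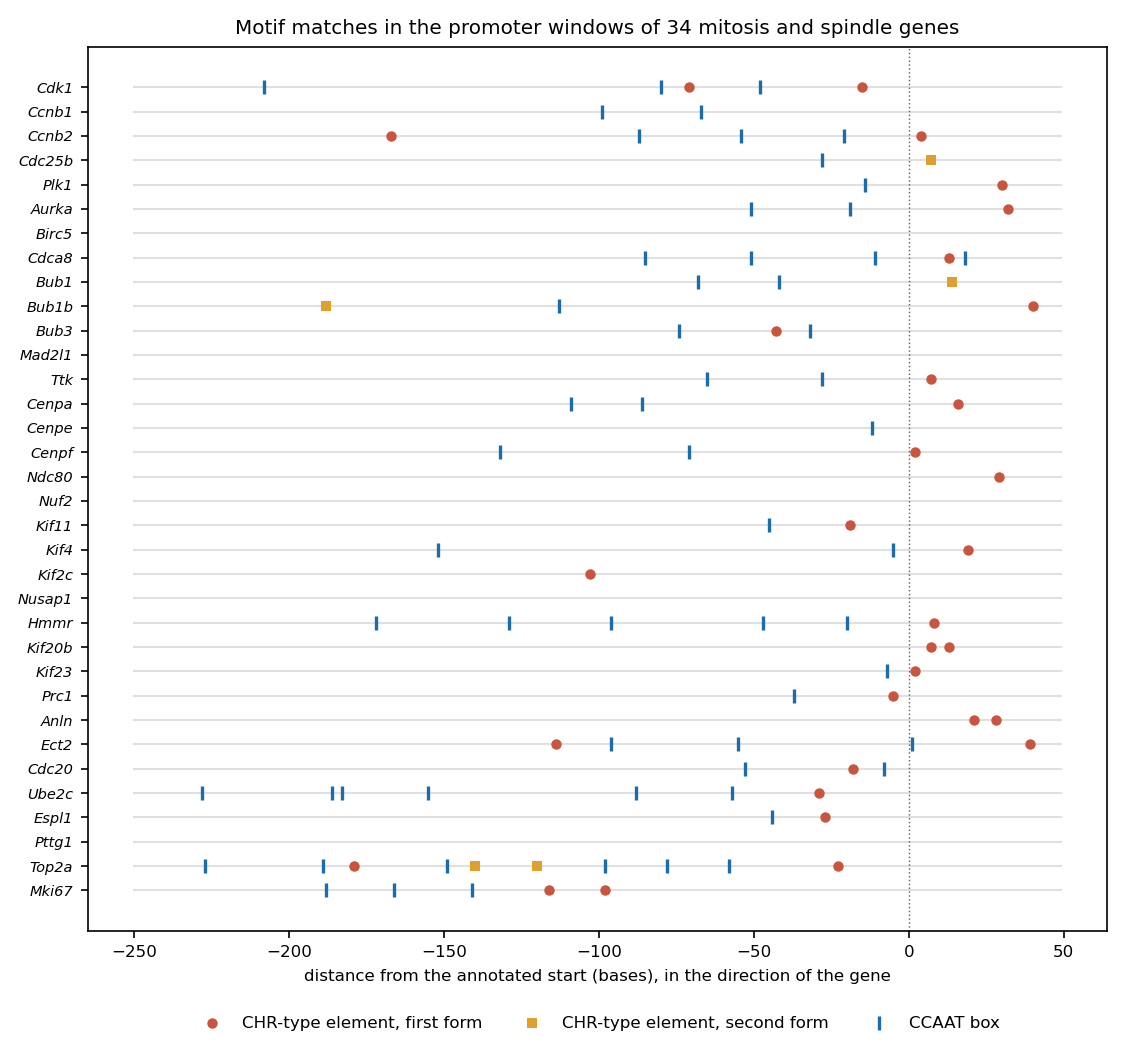
Motif matches in the promoter windows of 34 mitosis and spindle genes: the horizontal axis is the distance in bases from the annotated start, each line is 1 gene, circles are TTTGAA, squares TTCGAA and ticks CCAAT matches on either strand. Of the 34 windows, 27 held a CHR form and 25 a CCAAT box, and the CHR matches gather around the start.

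Ratios are log2 of scaled counts, with 10 scaled counts added to each side, taken from the table of each pair of libraries. They are given with 95% exact binomial intervals of the counts, which cover counting error only and are computed without the added counts. Because each table has its own scaling, a ratio need not equal that of the CPM values, which place all 4 libraries on 1 scale. The knockdown comparison in normal culture and the OGD comparison in control cells share the control library in normal culture, and each other library likewise enters a pair of comparisons.

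With the Neat1 lentivirus in normal culture, 38 of the 40 genes lay within 1.5-fold of control cells. Birc5, the survivin subunit of the chromosomal passenger complex, and Ect2, the exchange factor that starts the cleavage furrow, were at least 1.5-fold lower, and no member was 1.5-fold higher. Over all 14554 genes with at least 20 reads on 1 side, 23.2% were 1.5-fold lower and 13.3% higher. Among genes with 140 reads or more on 1 side, the range in which the members lie, 16.7% were lower and 9.1% higher. No member reached 2-fold, whereas 16.3% of all genes were 2-fold lower and 6.29% higher. Of the members 20 were above 0, against 48.0% of all genes. The members had a median log2 ratio of 0.01 and an interquartile range from -0.10 to 0.16, beside a median of -0.03 and a range from -0.52 to 0.31 for all genes.

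Under OGD the same lentivirus went with a wider spread among the 40 genes. Ndc80, Cenpe and Bub1 were at least 1.5-fold higher in knockdown cells (7.5% of members, against 18.7% of 13388 genes). Birc5, Incenp, Espl1, Cdc20 and Plk1 were 1.5-fold lower (12.5%, against 12.0%), a share near that of all genes. Among genes with 140 reads or more, 10.1% were higher and 10.4% lower. Only Birc5 passed 2-fold, and it was lower. At 2-fold 4.1% of all genes were lower and 10.4% higher. The median of the members was -0.13, with an interquartile range from -0.42 to 0.08, and that of all genes -0.00, with a range from -0.31 to 0.40. This count of directions depended on the scaling: 14 of 40 members were above 0 here (against 49.7% of all genes) and 26 with reads scaled by library totals, which moved the median of all genes to 0.19. With that scaling 6 members (15.0%) were 1.5-fold higher and 2 (5.0%) lower, against 25.3% and 7.4% of all genes, and 66.0% of all genes were above 0. The members' median minus that of all genes was -0.13 with either scaling. This gap was smaller with other settings, at -0.08 with a floor of 100 reads and -0.08 with FPKM.

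In control cells OGD went with lower levels of 6 members by at least 1.5-fold (15.0%, against 30.2% of 14101 genes) and higher levels of Prc1 and Cdca8 (5.0%, against 22.0%). Among genes with 140 reads or more, 23.9% were lower and 23.8% higher. Cenpe, Kif20b, Pttg1 and Mki67 were at least 2-fold lower (10.0%, against 20.4%), and 0 members were 2-fold higher, against 10.4%. Nuf2 and Cenpf completed the lower group. The median of the members was 0.08, with an interquartile range from -0.40 to 0.30, beside -0.04 for all genes, with a range from -0.79 to 0.51. Scaling by library totals put the median of all genes at -0.34. It left 9 of 40 members above 0 in place of 23 (against 47.8% of all genes), with 0 members 1.5-fold higher and 13 (32.5%) lower. With that scaling 13.1% of all genes were 1.5-fold higher, 40% lower and 33.6% above 0. The members' median lay above that of all genes by 0.13 with the deposited scaling and by 0.12 with library totals. This gap was smaller with other settings, at 0.05 with a floor of 100 reads and 0.08 with FPKM.

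In knockdown cells OGD went with the widest spread of the 4 comparisons. At least 1.5-fold lower were 13 members (32.5%, against 28.6% of 14071 genes), and Ect2 and Prc1 were higher (5.0%, against 28.6%). Kif20b, Nuf2, Mki67, Birc5, Ttk and Espl1 were at least 2-fold lower (15.0%, against 17.1%), and Ect2 was 2-fold higher (2.5%, against 18.9%). Among genes with 140 reads or more, 26.7% were 1.5-fold lower and 24.9% higher. The shares of lower members were near those of all genes, and 16 of 40 members were above 0, against 49.6% of all genes. The members' median was -0.08, with an interquartile range from -0.72 to 0.13, and the median of all genes -0.01, with a range from -0.70 to 0.72.

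**Figure D2:**
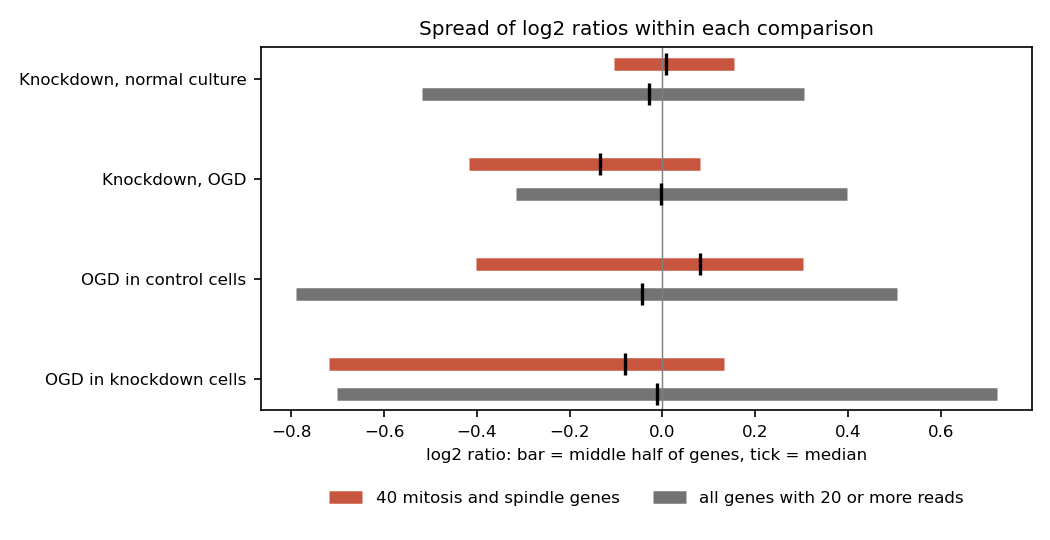
Spread of log2 ratios in the 4 comparisons (horizontal axis: log2 ratio, 10 scaled counts added), with the 40 mitosis and spindle genes drawn above all genes with 20 or more reads on 1 side; bars are the interquartile range and ticks the median. With the deposited scaling every median lies near 0. Library totals moved that of all genes to 0.19 for knockdown under OGD and -0.34 for OGD in control cells. The members' bar is shorter than that of all genes in each comparison. Every member has at least 140 reads in each library, so the bars do not set genes of like read counts side by side.

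In the authors' deposited table Birc5 had an adjusted p-value of 0.0028 for knockdown under OGD and of 0.0434 for knockdown in normal culture. It was the only member under 0.05 in either (1 of 40), against 0.124% of genes under OGD and 2.61% in normal culture. No member was under 0.05 in the authors' deposited tables for OGD, against 0.0947% of genes in knockdown cells and 1.21% in control cells. The sources used here do not name the model behind those p-values, and each rests on 1 library a side.

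The 4 libraries also allow a fit of virus and culture as separate terms, which leaves 1 residual degree of freedom and takes each effect as equal on the log2 scale at both levels of the other term. In edgeR's quasi-likelihood test of that fit, with Benjamini-Hochberg adjustment over 15086 genes, 0 genes had an adjusted p-value under 0.05 for the knockdown or for OGD (0.0% in each). For the knockdown, 1 member, Birc5, had an unadjusted p-value under 0.05 (2.5% of members, against 2.35% of all genes), with an effect of -1.38, lower in both cultures, and an adjusted p-value of 0.999. For OGD, 9 members did (22.5%, against 21.5%): Mki67, Pttg1, Kif20b, Cenpe, Nuf2, Cenpa, Birc5 and Ttk with lower and Prc1 with higher levels under OGD. Mki67 had the lowest adjusted p-value among them in edgeR's test, 0.0925, with an effect of -1.21, lower with either virus.

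**Figure D3:**
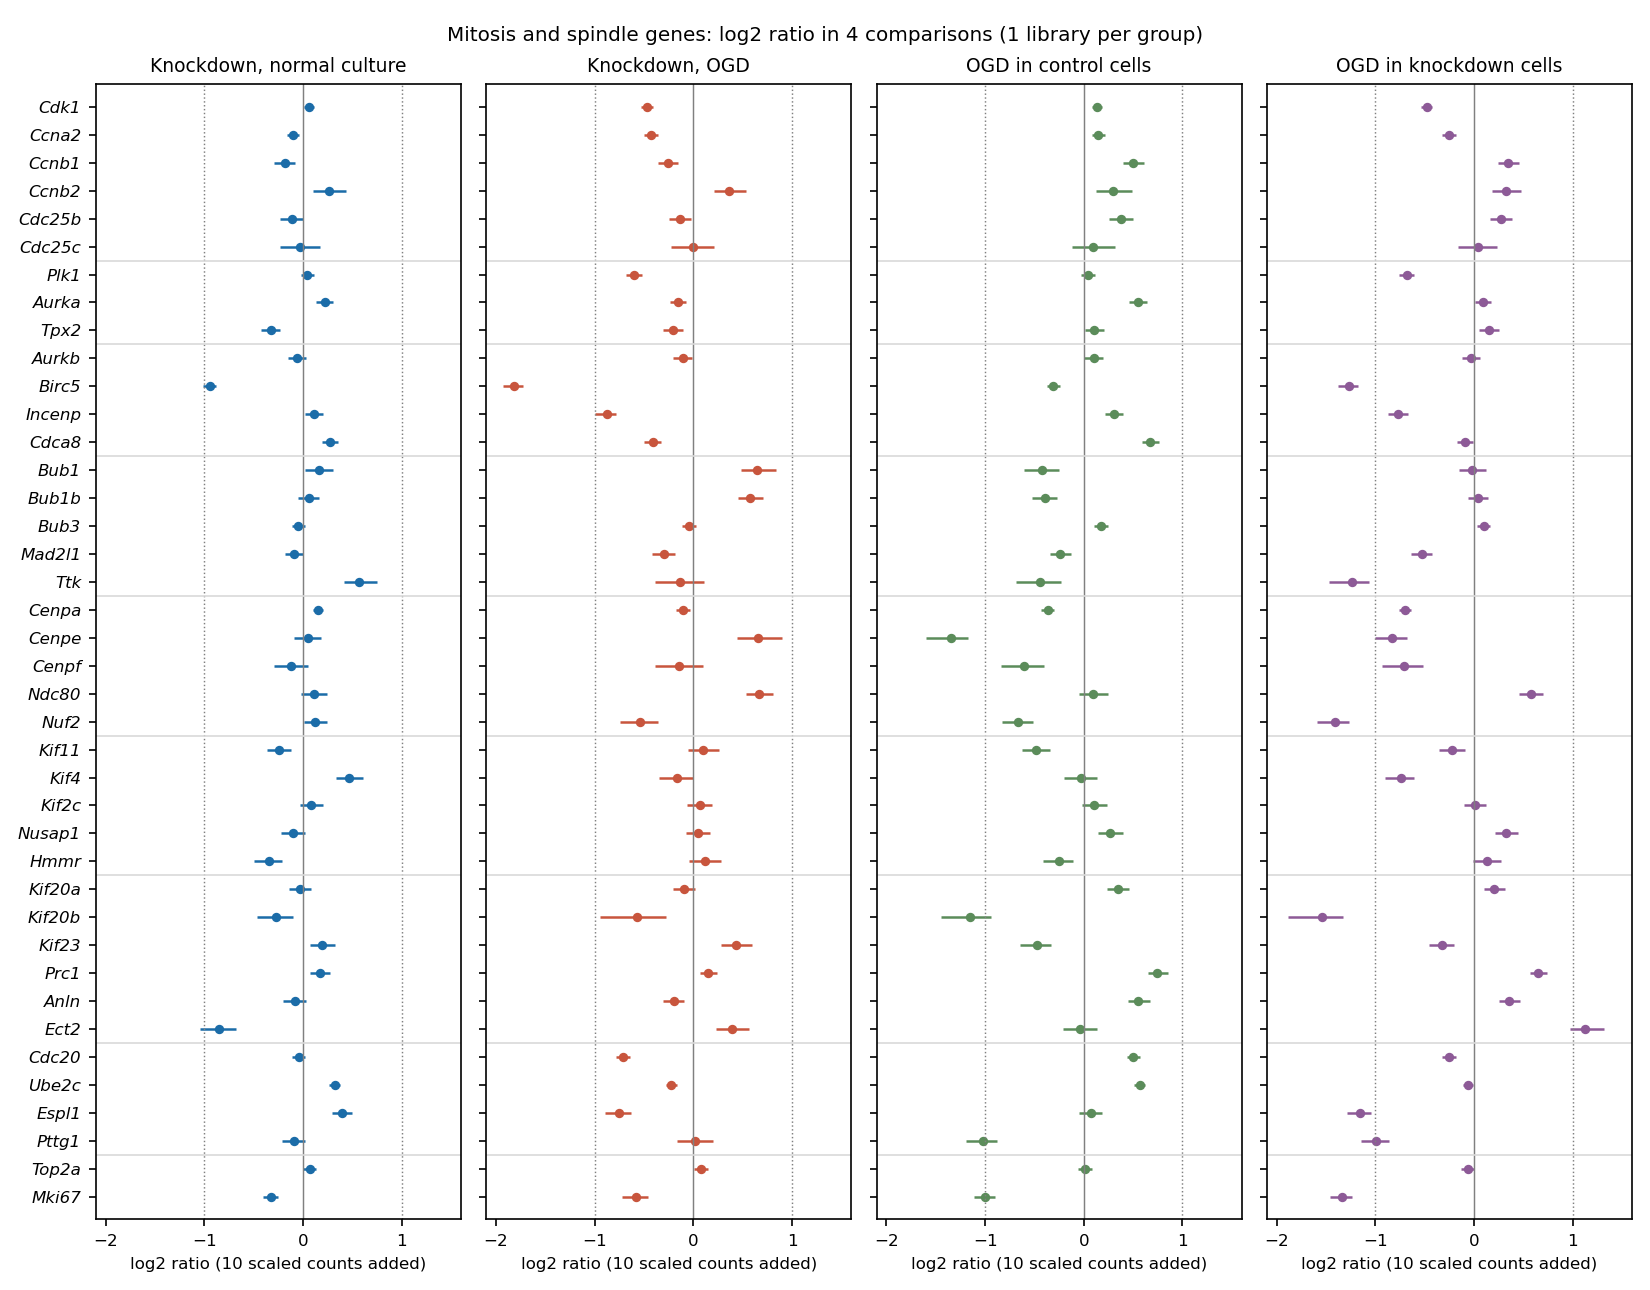
Log2 ratios of the 40 genes in the 4 comparisons (horizontal axis: log2 ratio with 10 scaled counts added; points are single pairs of libraries, bars 95% counting intervals without the added counts, dotted lines 2-fold), grouped by role from mitotic entry at the top to the proliferation mark at the bottom. Points sit near 0 in the first panel except Birc5 (-0.94) and Ect2 (-0.85), and spread most in the last.

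The genes of mitotic entry were the only group with all members, here 6, within 1.5-fold in each of the 4 comparisons. With the knockdown 69.3% of all genes lay within 1.5-fold under OGD and 63.5% in normal culture. With OGD 47.8% did so in control cells and 42.8% in knockdown cells. Other groups had narrower knockdown ranges. Under OGD the spindle motors and spindle proteins ran from -0.17 to 0.12, the entry genes from -0.47 to 0.36. In normal culture the kinetochore genes ran from -0.12 to 0.15, the entry genes from -0.18 to 0.26. Cdk1, the kinase itself, stood at 230.1 CPM in knockdown cells and 318 CPM in control cells under OGD, and at 319 CPM in knockdown cells and 305 CPM in control cells in normal culture. Its ratio was -0.47 for knockdown under OGD (-0.53 to -0.41) and -0.48 for OGD in knockdown cells (-0.54 to -0.43). The knockdown library under OGD was thus the lowest. For OGD in control cells the Cdk1 ratio was 0.135 with the deposited scaling, but -0.18 with library totals and -0.21 with FPKM. Cyclin A, Ccna2, which partners the kinase before mitosis, was likewise lowest in knockdown cells under OGD, at 157 CPM in knockdown cells and 211 CPM in control cells under OGD, and at 186 CPM in knockdown cells and 199.7 CPM in control cells in normal culture. The B cyclins differed from it. Ccnb1, the main mitotic cyclin, stood at 84.1 CPM in knockdown cells and 100.1 CPM in control cells under OGD, and at 65.5 CPM in knockdown cells and 74.4 CPM in control cells in normal culture, so that both OGD libraries exceeded both libraries of normal culture. Its OGD ratio was 0.50 in control cells (0.40 to 0.61) and 0.35 in knockdown cells (0.25 to 0.45). Ccnb2 was highest in knockdown cells under OGD, at 41.2 CPM, and on the CPM scale lowest in control cells in normal culture, at 27.1 CPM. That low end depended on the scaling. The Ccnb2 ratio for OGD in control cells was 0.30 with the deposited scaling, but -0.006 with library totals and -0.002 with FPKM. Both cyclin B genes have an annotated processed copy elsewhere in the genome, and reads could be split with it. The phosphatase Cdc25b, which activates Cdk1, had OGD ratios of 0.27 in knockdown cells and 0.38 in control cells, the second of which was 0.07 with library totals and -0.09 with FPKM. Its relative Cdc25c lay between 19.6 and 20.2 CPM in all 4 libraries, and all its intervals took in 0.

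Plk1, a kinase that acts at centrosomes, kinetochores and the furrow, separated the libraries more than did Aurka and Tpx2. It stood at 116 CPM in knockdown cells and 176 CPM in control cells under OGD, and at 185 CPM in knockdown cells and 179 CPM in control cells in normal culture. Knockdown under OGD was again the lowest library, with a ratio of -0.60 against control cells under OGD (-0.69 to -0.52) and of -0.68 against knockdown cells in normal culture (-0.76 to -0.61). Knockdown in normal culture gave 0.04, with an interval from -0.02 to 0.11. For OGD in control cells the Plk1 ratio was 0.05 with the deposited scaling, but -0.27 with library totals and -0.32 with FPKM. Aurka, the Aurora kinase of the spindle poles, stood at 121 CPM in knockdown cells and 135 CPM in control cells under OGD, and at 113 CPM in knockdown cells and 96.9 CPM in control cells in normal culture. Its ratio for OGD in control cells was 0.55 (0.46 to 0.64). Tpx2, the microtubule protein that activates Aurora A, was lower with knockdown in normal culture, at 76.3 CPM against 95.4 CPM in control cells (-0.32, -0.42 to -0.23). Its ratio for knockdown under OGD was -0.20 with the deposited scaling but 0.00 with library totals and 0.15 with FPKM.

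The 4 subunits of the chromosomal passenger complex, which corrects wrong attachments and guides cytokinesis, held the lowest knockdown ratio of any member in both cultures. Birc5 (ENSMUSG00000017716, chromosome 11, 117849251 to 117855743 on GRCm38, plus strand) stood at 55.6 CPM in knockdown cells and 197 CPM in control cells under OGD, and at 133 CPM in knockdown cells and 256 CPM in control cells in normal culture. Both knockdown libraries lay under both control libraries. Under OGD its scaled counts were 963 in knockdown cells against 3417 in control cells, a level 3.52-fold lower (log2 -1.82, -1.93 to -1.73). In normal culture they were 2736 in knockdown cells against 5261 in control cells, 1.92-fold lower (-0.94, -1.01 to -0.88). OGD gave -1.27 in knockdown cells (-1.38 to -1.17) and -0.31 in control cells (-0.37 to -0.24).

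Incenp, the scaffold that holds the complex together (ENSMUSG00000024660, chromosome 19, 9872296 to 9899551, minus strand), stood at 61.5 CPM in knockdown cells and 113 CPM in control cells under OGD, and at 104 CPM in knockdown cells and 96.4 CPM in control cells in normal culture. Only the knockdown library under OGD was low, with a ratio of -0.88 against control cells under OGD (-0.99 to -0.78) and of -0.77 against knockdown cells in normal culture (-0.88 to -0.67). Cdca8, the borealin subunit, stood at 117 CPM in knockdown cells and 156 CPM in control cells under OGD, and at 124 CPM in knockdown cells and 102 CPM in control cells in normal culture. For OGD in control cells its ratio was 0.67 (0.59 to 0.76), which became 0.36 with library totals, and for knockdown under OGD -0.41 (-0.50 to -0.33). Aurkb, the kinase of the complex, differed little, at 97.8 CPM in knockdown cells and 105 CPM in control cells under OGD, and at 99.2 CPM in knockdown cells and 103 CPM in control cells in normal culture. All of its ratios lay between -0.11 and 0.10.

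**Figure D4:**
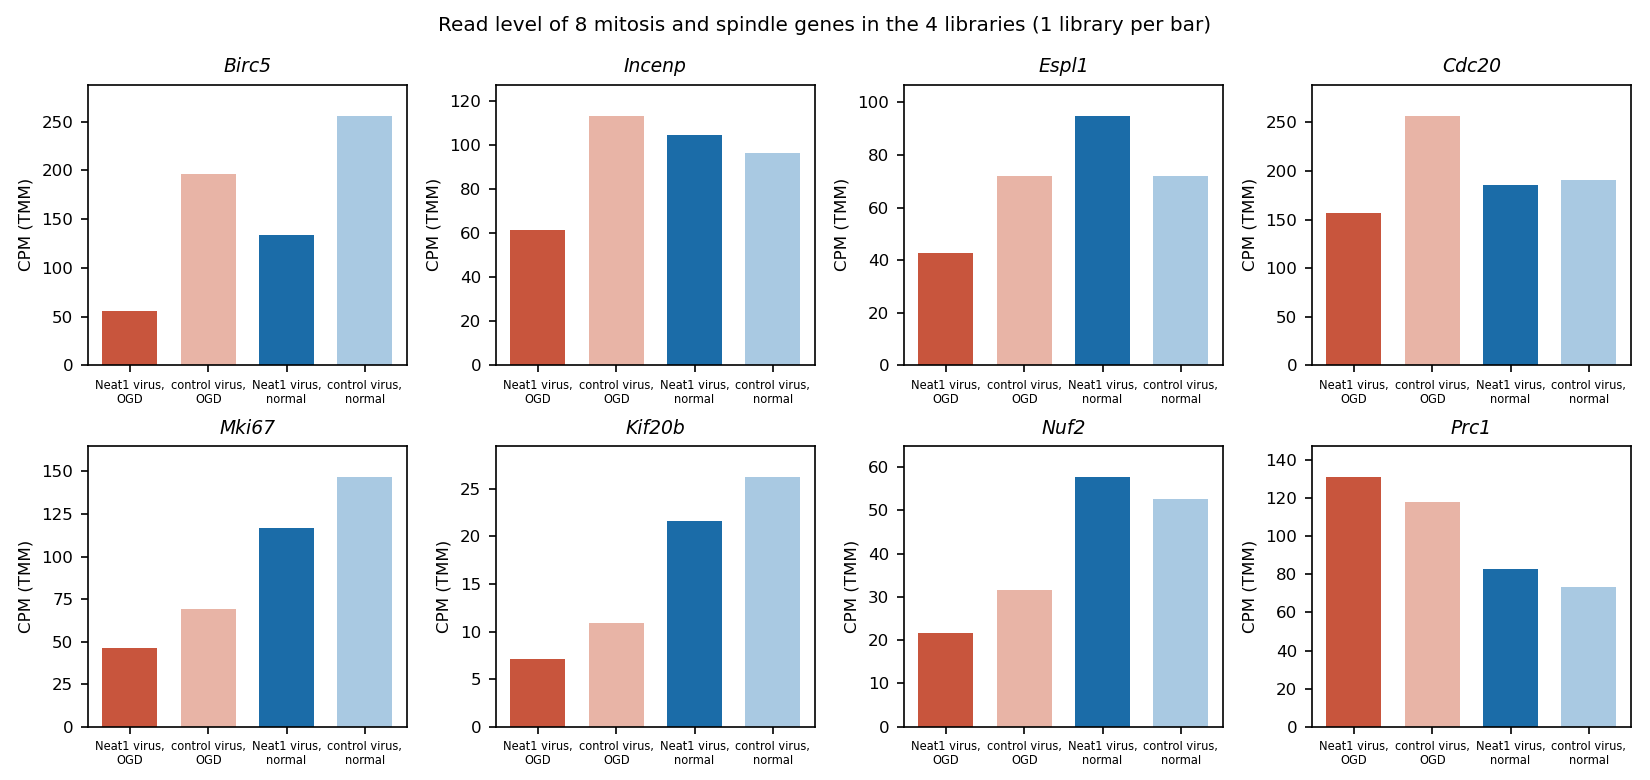
Levels of 8 mitosis and spindle genes in the 4 libraries (vertical axis: CPM with TMM factors, from 0; each bar is 1 library, so there are no error bars; OGD in reds and normal culture in blues, knockdown dark and control light). Birc5 is lower in each knockdown library than in its control, Incenp, Espl1 and Cdc20 are lowest in knockdown cells under OGD, Mki67, Kif20b and Nuf2 are lower in both OGD libraries, and Prc1 is higher in both.

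Among the genes of the spindle checkpoint, Bub1 and Bub1b shared a low library in control cells under OGD. Bub1, a kinase that recruits the checkpoint to kinetochores (ENSMUSG00000027379, chromosome 2, 127801122 to 127831865, minus strand), stood at 41.9 CPM in knockdown cells and 26.5 CPM in control cells under OGD, and at 42.1 CPM in knockdown cells and 37.6 CPM in control cells in normal culture. Its scaled counts of 727 in knockdown cells against 461 in control cells under OGD gave a ratio of 0.65 (0.48 to 0.83). For OGD its ratio was -0.02 in knockdown cells and -0.42 in control cells, but with the deposited FPKM -0.81 in knockdown cells and -1.04 in control cells. Bub1b, the BubR1 subunit that binds Cdc20 (ENSMUSG00000040084, chromosome 2, 118598211 to 118641591, plus strand), stood at 74.6 CPM in knockdown cells and 49.9 CPM in control cells under OGD, and at 72.1 CPM in knockdown cells and 69.2 CPM in control cells in normal culture. Its ratio for knockdown under OGD was 0.57 (0.45 to 0.71), just within 1.5-fold. Ttk (ENSMUSG00000038379, chromosome 9, 83834689 to 83872389, plus strand) had the highest ratio of any member for knockdown in normal culture, 0.57 (0.41 to 0.75), from scaled counts of 723 in knockdown cells against 483 in control cells. It stood at 14.8 CPM in knockdown cells and 16.3 CPM in control cells under OGD, and at 35.2 CPM in knockdown cells and 23.5 CPM in control cells in normal culture, and both OGD libraries were low. OGD in knockdown cells gave a 2.36-fold lower level (-1.24, -1.47 to -1.07). Mad2l1, the checkpoint protein Mad2, was lower under OGD in knockdown cells (-0.53, -0.64 to -0.43) and in control cells (-0.24, -0.34 to -0.13). Bub3, the adaptor of the Bub kinases, lay between 168 and 186 CPM in all 4 libraries.

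At the kinetochore, 4 of the 5 genes were at least 1.5-fold lower with OGD in knockdown cells (against 28.6% of all genes) and 3 in control cells (against 30.2%). Of those in knockdown cells, Cenpe was above 0 with the deposited FPKM. Cenpe, the kinesin that carries chromosomes to the spindle equator (ENSMUSG00000045328, chromosome 3, 135212537 to 135273611, plus strand), stood at 24.9 CPM in knockdown cells and 15.6 CPM in control cells under OGD, and at 44.3 CPM in knockdown cells and 42.7 CPM in control cells in normal culture. Both OGD libraries were the low ones. OGD in control cells gave scaled counts of 278 against 724 in normal culture, 2.55-fold lower (-1.35, -1.59 to -1.17), the lowest ratio of a member in that comparison. In knockdown cells the ratio was -0.83 (-1.0 to -0.68), but it was 0.32 with the deposited FPKM. For knockdown under OGD, Cenpe had a ratio of 0.65 (0.44 to 0.90).

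Nuf2 and Ndc80 are partners in the complex that grips microtubules, and their levels parted under OGD. Nuf2 (ENSMUSG00000026683, chromosome 1, 169497934 to 169531464, minus strand) stood at 21.6 CPM in knockdown cells and 31.5 CPM in control cells under OGD, and at 57.6 CPM in knockdown cells and 52.7 CPM in control cells in normal culture. OGD gave 2.65-fold lower scaled counts in knockdown cells, 441 under OGD against 1186 in normal culture (-1.41, -1.59 to -1.27). In control cells the OGD ratio was -0.66 (-0.83 to -0.51). Ndc80 (ENSMUSG00000024056, chromosome 17, 71496100 to 71526857, minus strand) stood at 68.5 CPM in knockdown cells and 42.8 CPM in control cells under OGD, and at 45.5 CPM in knockdown cells and 42.1 CPM in control cells in normal culture. Here the knockdown library under OGD was the high one. It had the highest ratio of any member for knockdown under OGD, 0.67 (0.54 to 0.81), and 0.57 for OGD in knockdown cells (0.46 to 0.70). Cenpa stood at 184 CPM in knockdown cells and 197 CPM in control cells under OGD, and at 297 CPM in knockdown cells and 267 CPM in control cells in normal culture, with OGD ratios of -0.70 in knockdown cells and -0.37 in control cells. Cenpf, a large coiled-coil protein of the outer kinetochore, had OGD ratios of -0.71 in knockdown cells (-0.94 to -0.52) and -0.60 in control cells (-0.84 to -0.40).

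The spindle motors and spindle proteins lay mostly within 1.5-fold. The exception was Kif4, a kinesin of chromosome arms and the central spindle (ENSMUSG00000034311, chromosome X, 100625737 to 100727214, plus strand), for OGD in knockdown cells (-0.74, -0.90 to -0.61). With knockdown in normal culture it was higher but within 1.5-fold, at 51.5 CPM against 37.2 CPM in control cells (0.46, 0.33 to 0.60). Its level under OGD was 30.7 CPM in knockdown cells and 34.6 CPM in control cells. An annotated copy of Kif4 exists, and Kif4 shares 832 exonic bases with Pdzd11 on the other strand. Kif11, the motor that pushes spindle poles apart, stood at 42.3 CPM in knockdown cells and 39.3 CPM in control cells under OGD, and at 49.1 CPM in knockdown cells and 57.9 CPM in control cells in normal culture. Hmmr, a microtubule protein of the spindle (ENSMUSG00000020330, chromosome 11, 40701395 to 40733422, minus strand), stood at 39.8 CPM in knockdown cells and 36.7 CPM in control cells under OGD, and at 36.2 CPM in knockdown cells and 46.1 CPM in control cells in normal culture. Its ratio for knockdown in normal culture was -0.35 (-0.49 to -0.21). Kif2c, the kinesin that takes microtubule ends apart, lay between 56.5 and 60.8 CPM, and every interval of its ratios took in 0. Nusap1, which bundles spindle microtubules, had OGD ratios of 0.32 in knockdown cells (0.21 to 0.44) and 0.26 in control cells (0.14 to 0.39). The second was -0.05 with library totals.

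The genes of the central spindle and cytokinesis held both the highest and the lowest OGD ratios in knockdown cells. Ect2 (ENSMUSG00000027699, chromosome 3, 27097222 to 27153878, minus strand) stood at 41.6 CPM in knockdown cells and 31.6 CPM in control cells under OGD, and at 18.7 CPM in knockdown cells and 34.0 CPM in control cells in normal culture. The knockdown library in normal culture was the low one. Scaled counts of 384 in knockdown cells against 699 in control cells gave a ratio of -0.85 there (-1.05 to -0.68). OGD in knockdown cells gave 851 against 385 in normal culture, 2.18-fold higher (1.12, 0.97 to 1.32). Kif20b (ENSMUSG00000024795, chromosome 19, 34922361 to 34975745, plus strand) stood at 7.15 CPM in knockdown cells and 10.9 CPM in control cells under OGD, and at 21.6 CPM in knockdown cells and 26.2 CPM in control cells in normal culture. Both OGD libraries lay under both libraries of normal culture. OGD gave a 2.91-fold lower level in knockdown cells (-1.54, -1.89 to -1.33), the lowest of the members in that comparison, and a 2.22-fold lower level in control cells (-1.15, -1.45 to -0.94).

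Prc1, which cross-links the central spindle (ENSMUSG00000038943, chromosome 7, 80294450 to 80316259, plus strand), ran the other way, at 131 CPM in knockdown cells and 118 CPM in control cells under OGD, and at 83.0 CPM in knockdown cells and 73.6 CPM in control cells in normal culture. Its OGD ratio was 0.65 in knockdown cells (0.56 to 0.74) and 0.75 in control cells (0.65 to 0.85). The second was 0.44 with library totals and 0.39 with FPKM. Exons of Rccd1 on the opposite strand share 911 bases with Prc1, and the sources used here do not say whether counting used strand. Anln, the anillin scaffold of the contractile ring (ENSMUSG00000036777, chromosome 9, 22332012 to 22389188, minus strand), was also higher in the OGD libraries, with ratios of 0.36 in knockdown cells (0.25 to 0.47) and 0.55 in control cells (0.45 to 0.67). With library totals or FPKM the Anln ratio in control cells was 0.24. Kif23, a motor of the central spindle, was lower, with OGD ratios of -0.32 in knockdown cells (-0.45 to -0.20) and -0.48 in control cells (-0.64 to -0.33). Kif20a, its relative at the midzone, had ratios of 0.20 in knockdown cells (0.10 to 0.31) and 0.34 in control cells (0.23 to 0.46). The Kif20a ratio in control cells was only 0.03 with library totals and 0.035 with FPKM. Kif20a shares 1271 exonic bases with Cdc23 on the other strand.

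Of the genes that trigger chromosome separation, Espl1 and Cdc20 were lowest in knockdown cells under OGD. Espl1, the protease separase (ENSMUSG00000058290, chromosome 15, 102296266 to 102324357, plus strand), stood at 42.6 CPM in knockdown cells and 72.1 CPM in control cells under OGD, and at 95.0 CPM in knockdown cells and 72.2 CPM in control cells in normal culture. Knockdown cells thus held both its lowest and its highest level. Scaled counts were 739 in knockdown cells against 1252 in control cells under OGD (-0.75, -0.89 to -0.63) and 1948 in knockdown cells against 1482 in control cells in normal culture (0.39, 0.30 to 0.49). OGD in knockdown cells gave a 2.23-fold lower level (-1.16, -1.28 to -1.05). Cdc20, the activator of the anaphase promoting complex (ENSMUSG00000006398, chromosome 4, 118432901 to 118437352, minus strand), stood at 157 CPM in knockdown cells and 257 CPM in control cells under OGD, and at 186 CPM in knockdown cells and 191 CPM in control cells in normal culture. Its ratio for knockdown under OGD was -0.71 (-0.78 to -0.65).

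Ube2c (ENSMUSG00000001403, chromosome 2, 164769898 to 164778822, plus strand) stood at 281 CPM in knockdown cells and 328 CPM in control cells under OGD, and at 291 CPM in knockdown cells and 233 CPM in control cells in normal culture. Its ratio was 0.32 for knockdown in normal culture (0.27 to 0.38) and 0.57 for OGD in control cells (0.51 to 0.62), both of which rest on the control library in normal culture. It shares 592 exonic bases with Tnnc2 on the other strand. Pttg1, the securin that holds separase inactive (ENSMUSG00000020415, chromosome 11, 43420250 to 43426251, minus strand), was lower under OGD by about the same factor with either virus. Scaled counts were 584 under OGD against 1171 in normal culture in knockdown cells (-0.99, -1.15 to -0.86), and 501 under OGD against 1028 in normal culture in control cells (-1.02, -1.20 to -0.88). Its knockdown ratios were 0.02 under OGD and -0.09 in normal culture, and both intervals took in 0.

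Top2a, the enzyme that untangles chromosomes, and Mki67, the coat protein of mitotic chromosomes used as a mark of proliferation, did not share a pattern. Top2a lay between 179 and 197 CPM in the 4 libraries. Mki67 (ENSMUSG00000031004, chromosome 7, 135689784 to 135716361, minus strand) stood at 46.2 CPM in knockdown cells and 69.4 CPM in control cells under OGD, and at 117 CPM in knockdown cells and 147 CPM in control cells in normal culture. Both OGD libraries were low, and within each culture the knockdown library was the lower one. Its OGD ratio was -1.34 in knockdown cells (-1.46 to -1.24) and -1.0 in control cells (-1.11 to -0.90), and its knockdown ratio -0.58 under OGD (-0.72 to -0.46) and -0.33 in normal culture (-0.41 to -0.25).

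The OGD comparisons share no library. Cenpe, Cenpf, Nuf2, Kif20b, Pttg1 and Mki67 were at least 1.5-fold lower in both (15.0% of members, against 13.6% of 13086 genes), a share near that of all genes. Prc1 was 1.5-fold higher in both (2.5%, against 14.2%). Across the 40 genes the ratios of knockdown and of control cells had a Spearman correlation of 0.62 and a Pearson correlation of 0.65, beside 0.44 and 0.16 across all genes. These are descriptions across genes measured in the same 4 libraries. The signs were the same for 27 of 40 members (67.5%), beside 70.1% of all genes. For the knockdown, Birc5 was the 1 member at least 1.5-fold lower in both cultures (2.5%, against 2.47% of 12856 genes), and 0 were higher in both, against 3.1%. The knockdown ratios had a Spearman correlation of 0.10 and a Pearson correlation of 0.26 across members, beside -0.05 and -0.35 across all genes. Their signs were the same for 24 of 40 members (60.0%), beside 49.6% of all genes.

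**Figure D5:**
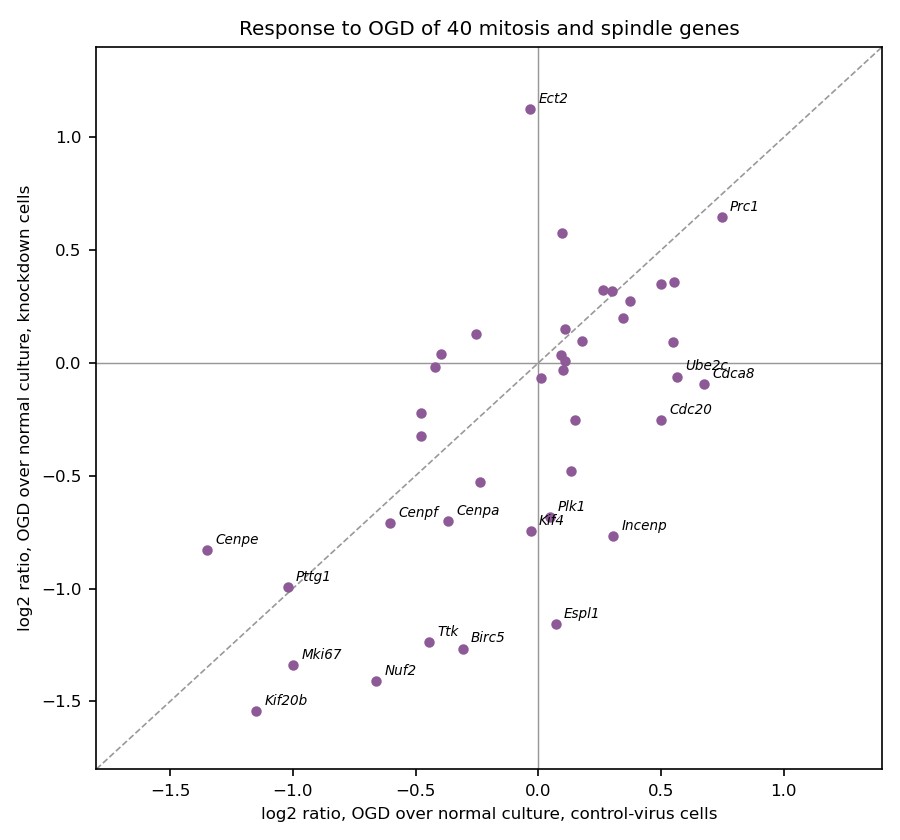
OGD ratios of the 40 genes in knockdown cells (vertical axis, log2) against those in control cells (horizontal axis, log2); each point is 1 gene, the dashed line marks equal ratios, and 1 library per group gives no error between cultures. Kif20b, Mki67, Pttg1, Nuf2 and Cenpe lie low on both axes, Prc1 high on both, and Ect2 (1.12 in knockdown cells, -0.03 in control cells) stands apart.

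The difference between the OGD ratios, knockdown minus control cells, was lowest for Espl1 (-1.23), Incenp (-1.07), Birc5 (-0.96), Ttk (-0.79) and Cdca8 (-0.77), and highest for Ect2 (1.16), Cenpe (0.52), Ndc80 (0.48), Bub1b (0.44) and Bub1 (0.41). The median over members was -0.14, beside -0.12 for all genes; its sign turned with the scaling, to 0.17 beside 0.19 for all genes with library totals and 0.16 beside 0.21 with FPKM. Apart from scaling this is the same quantity as the knockdown ratio under OGD minus that in normal culture, whose median over members was -0.06. These differences were not tested, since they use up the last degree of freedom of the 4 libraries.

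Longer members did not share a direction in all comparisons. Exonic length, from 1531 to 15433 bases, had a Spearman correlation of -0.37 with the ratio for OGD in control cells across the 40 members, beside 0.02 across protein-coding genes. It was -0.18 for OGD in knockdown cells (beside 0.14), 0.12 for knockdown under OGD (beside 0.12) and -0.03 for knockdown in normal culture (beside -0.07).

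Genes that work with the members were followed in 5 further lists. Among 32 other kinetochore and checkpoint genes, knockdown in normal culture had 1 gene 1.5-fold higher and 4 lower (3.12% and 12.5%, against 13.3% and 23.2% of all genes). Knockdown under OGD had 2 higher and 3 lower (6.25% and 9.38%, against 18.7% and 12.0% of all genes). With OGD 8 were higher and 10 lower in knockdown cells (25% and 31.2%, against 28.6% and 28.6% of all genes), and 9 higher and 7 lower in control cells (28.1% and 21.9%, against 22.0% and 30.2% of all genes). At the extremes of knockdown in normal culture were Mad2l1bp, which takes Mad2 out of the checkpoint complex (0.91), Kntc1 of the outer kinetochore (0.57), Nsl1 of the Mis12 complex (-1.59) and Cenpt of the inner kinetochore (-1.04). Under OGD the knockdown extremes were Sgo2a, a shugoshin that guards centromeric cohesion (0.72), and Cenpq (0.67), with Mis12 (-0.94) and Cenpl (-0.89) at the low end. OGD in control cells gave Mad2l1bp 1.5 and Dsn1, a Mis12 complex subunit, 1.12, and Cenpc1 -1.52 and Cenpw -1.38. In knockdown cells OGD gave Nsl1 1.91 and Dsn1 1.34, and Cenpk -1.62 and Cenpw -1.61. Dsn1 was thus high and Cenpw low in both OGD comparisons.

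Among 30 other spindle, motor and centrosome genes, knockdown in normal culture had 3 genes 1.5-fold higher and 7 lower (10.0% and 23.3%, against 13.3% and 23.2% of all genes). The same virus under OGD had 1 higher and 3 lower (3.33% and 10.0%, against 18.7% and 12.0% of all genes). In the OGD comparisons 4 were higher and 6 lower in knockdown cells (13.3% and 20%, against 28.6% and 28.6% of all genes), and 4 higher and 7 lower in control cells (13.3% and 23.3%, against 22.0% and 30.2% of all genes). Haus6, a subunit of the augmin complex that branches microtubules, was the highest with knockdown in both cultures, at 0.62 under OGD and 0.93 in normal culture. Plk4, the kinase of centriole duplication, had 0.84 in normal culture, and the citron kinase Cit had 0.50 under OGD but -1.20 in normal culture, beside Depdc1a at -1.16. Low under OGD with knockdown were Kif14, a motor of cytokinesis (-1.0), and Aspm of the spindle poles (-0.63). With OGD in control cells, Kifc5b, a minus-end kinesin closely related to Kifc1 that may share reads with it, had 1.05 and the augmin subunit Haus5 0.99, whereas Kif18a, which dampens chromosome movement, had -1.51 and Cit -1.02. With OGD in knockdown cells, Haus5 had 1.25 and Dlgap5, a spindle assembly protein, 1.24, whereas Kif14 had -1.39 and Fam83d -0.81.

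The 17 other genes of the anaphase promoting complex lay within 1.5-fold in both knockdown comparisons. Of all genes, 69.3% did so under OGD and 63.5% in normal culture. With OGD 4 were higher and 2 lower in knockdown cells (23.5% and 11.8%, against 28.6% and 28.6% of all genes), and 4 higher and 1 lower in control cells (23.5% and 5.88%, against 22.0% and 30.2% of all genes). Anapc16, a small subunit, was highest with knockdown in both cultures (0.43 under OGD, 0.45 in normal culture). The next were Cdc27 under OGD (0.35) and Fbxo5, the inhibitor Emi1, in normal culture (0.33), and the lowest were Anapc15 (-0.46) and Anapc10 (-0.40) under OGD and Cdc16 (-0.42) and Cdc23 (-0.39) in normal culture. OGD in control cells gave Anapc7 1.01, Anapc2 0.90, Anapc1 -0.66 and Anapc15 -0.51. In knockdown cells it gave Cdc16 1.1, Anapc7 0.95, Anapc15 -0.76 and Fbxo5 -0.72.

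Among 22 condensin and cohesin genes, knockdown in normal culture had 4 genes 1.5-fold higher and 1 lower (18.2% and 4.55%, against 13.3% and 23.2% of all genes). Knockdown under OGD had 2 higher and 1 lower (9.09% and 4.55%, against 18.7% and 12.0% of all genes). With OGD 3 were higher and 6 lower in knockdown cells (13.6% and 27.3%, against 28.6% and 28.6% of all genes), and 2 higher and 2 lower in control cells (9.09% and 9.09%, against 22.0% and 30.2% of all genes). Nipbl, which loads cohesin, had knockdown ratios of 0.93 under OGD and 0.87 in normal culture, and Ncapd3, a condensin II subunit, was lowest in both, at -0.80 under OGD and -0.96 in normal culture. The acetyltransferase Esco1 had 1.07 and the loader subunit Mau2 -0.42 with knockdown in normal culture, and the release factor Wapl 0.82 and the cohesin regulator Pds5a -0.44 with knockdown under OGD. With OGD, Mau2 had 1.74 in knockdown cells and 1.07 in control cells, and sororin, Cdca5, which protects cohesion, had 0.96 in knockdown cells and 0.80 in control cells. The lowest were Pds5a (-1.26) and Esco1 (-1.03) in knockdown cells, and Smc2, a condensin core subunit (-0.66), and Nipbl (-0.60) in control cells.

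Among 36 transcription and entry regulators of mitosis, knockdown in normal culture had 7 genes 1.5-fold higher and 3 lower (19.4% and 8.33%, against 13.3% and 23.2% of all genes). The same virus under OGD had 2 higher and 7 lower (5.56% and 19.4%, against 18.7% and 12.0% of all genes). In the OGD comparisons 8 were higher and 6 lower in knockdown cells (22.2% and 16.7%, against 28.6% and 28.6% of all genes), and 12 higher and 2 lower in control cells (33.3% and 5.56%, against 22.0% and 30.2% of all genes). Lin52, a subunit of the MuvB core, had 1.25 and E2f2 1.05 with knockdown in normal culture, beside Wee1, the kinase that restrains Cdk1, at -0.88 and the repressor E2f8 at -0.81. With knockdown under OGD, Lin9 of the same core had 0.74 and Mastl, the Greatwall kinase, 0.66, whereas Mybl2, the B-Myb activator of late cell cycle genes, had -1.27 and the repressor E2f7 -1.12. OGD in control cells gave Lin52 2.06 and E2f1 1.38, and Cdkn3 -0.94 and the E2F partner Tfdp1 -0.70. In knockdown cells OGD gave E2f8 1.51 and Wee1 1.41, and Bora, which helps Aurora A activate Plk1, -1.27 and E2f6 -1.15. Ratios of these lists are of single libraries, and those with control cells in normal culture rest on the library with the high neuron marker sum.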

How the data were processed

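RNA of 4 HT22 cultures was sequenced, 1 library per group, so a ratio between groups has no error between cultures. RNA was extracted with TRIzol, per the labels' protocols, then fragmented and copied with dUTP in 1 strand. Alignment used TopHat2 and mm10, per the submitters' processing notes. The sources used here give no TopHat2 version, no counting program or annotation, and not whether strand was used. Per the file headers, the 4 deposited tables, each of a pair of libraries, hold size-factor scaled counts (a signal per library), log2 and linear fold ratios, and p-values with their adjusted form. A further pair of deposited columns was read as FPKM, from the values. Dividing the deposited signal by its step recovered whole reads, with 100% of values whole at a tolerance of 1e-06 of a read, and 0 genes differed between the tables that hold the same library. Value columns that match no sample numbered 0. On these reads edgeR's quasi-likelihood test was run with virus and culture as additive terms, an alternative chosen after seeing the data, and called 0 genes; single comparisons have 1 library per side and were not tested.

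The members and all gene lists were chosen with earlier results of these data known. Main ratios add 10 scaled counts to each side, for genes with 20 or more reads on 1 side; the added counts shrink ratios of low genes. Counts use rules of size at 1.5-fold and 2-fold. Members were all accounted for, and the 4 highest and 4 lowest of each comparison, any past 2-fold, the 3 highest and 3 lowest by FPKM and the 2 highest and 2 lowest of each other list are named by rule. TMM factors came from edgeR 4.0.16 in R 4.3.3; the rest used Python 3.11.15, numpy 2.4.6, pandas 2.3.3, scipy 1.17.1 and matplotlib 3.10.9. The reads carry no molecular identifiers, so PCR copies count as reads and intervals cover counting error only. Names and positions are from GENCODE M21 (GRCm38), with 19912 of 20089 identifiers matched to a symbol. Exons of 11 members overlap a gene on the opposite strand and 3 members have an annotated copy, so their reads may be shared. The scripts for ratios and for the additive fit were tested on simulated data. In the additive fit of the real data the common dispersion, a measure of spread between libraries, was 0.488. That is far above the dispersion set in the simulated data. The simulation therefore cannot show which changes the fit could call in these libraries.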

Additional observations from a re-analysis of the deposited data

Results flagged for a closer look

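Some members had log2 ratios of opposite sign in the 2 cultures or with the 2 viruses. Those listed have counting intervals off 0 on both sides and the same signs with every scaling, added amount and floor tried. The difference itself was not tested, because it leaves no degree of freedom with 1 library per group. Only members were searched by this rule, so the counts have no share of all genes beside them. Knockdown ratios at least 1.5-fold in opposite directions were found for 0 members, against 1117 of 12856 genes. Signs were the same in both cultures for 60.0% of members, against 49.6% of all genes. With OGD they were the same with both viruses for 67.5%, against 70.1%.

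For the knockdown, 5 genes were lower under OGD and higher in normal culture. The ratios were -0.88 under OGD and 0.11 in normal culture for Incenp, -0.41 under OGD and 0.27 in normal culture for Cdca8, and -0.54 under OGD and 0.13 in normal culture for the kinetochore gene Nuf2. For Ube2c they were -0.22 under OGD and 0.32 in normal culture, and for separase, Espl1, -0.75 under OGD and 0.39 in normal culture. Ect2 ran the other way, with 0.39 under OGD and -0.85 in normal culture. For OGD, 3 genes were lower in knockdown cells and higher in control cells: Cdca8 with -0.094 in knockdown cells and 0.67 in control cells, Cdc20 with -0.25 in knockdown cells and 0.50 in control cells, and Ube2c with -0.060 in knockdown cells and 0.57 in control cells. Control cells in normal culture, the library with the neuron marker sum of 2078 CPM, enter the second value of each pair, and the part of that library was not tested.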

How the results depend on the processing

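With 1 or 50 scaled counts added, TMM scaling, a floor of 100 reads or none, the medians and counts of members stayed near those given, except that 2 members in place of 4 were 2-fold lower with OGD in control cells when 50 were added. Library totals moved the median of members to 0.066 for knockdown under OGD, with 6 members 1.5-fold higher and 2 lower, and to -0.23 for OGD in control cells, with 0 higher and 13 lower. With the deposited FPKM these were 0.12, 5 higher and 3 lower, with 1 member 2-fold higher, for knockdown under OGD, and -0.25, 0 higher and 13 lower for OGD in control cells; 2 members were 2-fold lower with knockdown in normal culture. The median difference, for the knockdown and for OGD alike, was 0.17 with library totals and 0.16 with FPKM. Library totals put the median of all genes at 0.19 for knockdown under OGD and -0.34 for OGD in control cells. The cause of these shifts was not tested. Single ratios of members moved by more than their counting interval in 75 of 160 cases with library totals, 97 with FPKM and 8 with TMM. With 1 library per group there were no replicates to pair between groups. The additive fit sets knockdown against control within culture. In edgeR's quasi-likelihood test it gave 0 members with an adjusted p-value under 0.05 for either effect. No library could be left out, since that leaves the fit no residual degree of freedom, and depth limits the precision of low members such as Kif20b most.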

Other observations

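For 4 members, Cenpf, Cenpe, Bub1 and Cdc25b, a ratio by deposited FPKM differed by more than 1.5-fold from that by scaled counts in at least 1 comparison. Under OGD Cenpf had 298 reads in knockdown cells against 259 in control cells, and in normal culture 538 reads in knockdown cells against 534 in control cells. Its FPKM under OGD was 1.57 in knockdown cells against 2.69 in control cells, and in normal culture 5.42 in knockdown cells against 12.0 in control cells. By FPKM its ratio was -1.08 for knockdown in normal culture, and for OGD -1.52 in knockdown cells and -1.97 in control cells. For knockdown under OGD, Cdc25b had a ratio of 0.46 by FPKM and of -0.13 by scaled counts. Cenpe had an FPKM of 14.1 in knockdown cells against 6.62 in control cells under OGD, and in normal culture of 11.2 in knockdown cells against 12.3 in control cells.

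The neuron markers did not follow 1 order across libraries. Nrgn, a calmodulin-binding protein of neuronal synapses, had 449 reads in knockdown cells against 42 in control cells under OGD, and in normal culture 19 in knockdown cells against 21469 in control cells. Tubb3, the neuronal beta-tubulin, had 419 reads in knockdown cells against 830 in control cells under OGD, and in normal culture 407 in knockdown cells against 1052 in control cells. Snap25, a protein of synaptic vesicle fusion, had 819 reads in knockdown cells against 82 in control cells under OGD, and in normal culture 68 in knockdown cells against 277 in control cells.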
